A study of Mus musculus with 8 samples.

Results

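The 37 genes described here carry glucose into the cell, break it down to pyruvate and lactate, and set how much pyruvate enters the mitochondrial citric acid cycle. They are a list of gene symbols drawn up by pathway. No measured value entered the rule, but the list was chosen with earlier results of these data known. All 37 had a row among the 23389 gene symbols of each table. Of these, 36 passed the filter on low values, as did 13200 genes in all. The filter asked for 1 RPKM or more in 2 or more of the 8 libraries. RPKM, the unit of the values, is a read count divided by gene length and by the size of the library. The member that did not pass was Fbp1.

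Poly-A RNA was sequenced from 4 groups of mouse cells with 2 libraries each. Embryonic stem (ES) cells were of the D3 GFP line on the 129S2/SvPas background, and mouse embryonic fibroblasts (MEF) were BALB/c; each pair consisted of biological replicates. Induced pluripotent stem (iPS) cells were BALB/c clones that had been derived independently. A pair of clones, called 3F+IL6, was derived from MEF with Oct4, Klf4 and Sox2 and treated with 10 ng/mL of the cytokine IL6, and the other pair is labelled 4F, with no list of its factors in the labels. ES and iPS cells therefore differed in strain as well as in origin, and the kinds of clone differed in both factors and IL6, so these cannot be told apart. The labels give no passage number, medium or oxygen level for any group.

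Libraries held an estimated 11800000 to 18300000 reads. Summed RPKM of 10 pluripotency markers was 5017 to 6123 in ES and iPS libraries and at most 8.09 in MEF. Single markers differed in the limma test described below. Against ES, 3 of the 10 were lower and 2 higher in 3F+IL6 (30.3% and 33.1% of all genes). In 4F, 4 were lower than in ES and 1 higher (33.5% and 33.7%). Nanog, Zfp42 and Esrrb were lower in both kinds of clone. Summed RPKM of 12 fibroblast markers was 3732 to 3751 in MEF, 211 to 368 in iPS clones and 8.82 to 9.09 in ES cells, where 9 of the 12 were under 1 RPKM. Dcn and Lum, fibroblast matrix genes, were as high in 3F+IL6 clones (44.1 and 66.6 RPKM for Dcn) as in MEF (34.7 and 33.7) or higher. Markers of both lists differed between iPS and ES cells, and their part in the results below was not tested. The libraries of the 3F+IL6 pair stood further apart than any other pair. Their median chi-square between replicates, computed on estimated reads, was 12.9 times its expectation against 1.2 to 2.88 elsewhere. In bulk RNA, fewer cells of a type and less RNA per cell cannot be told apart.

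Glycolysis splits a glucose molecule into pyruvate through a chain of enzymes, most of which exist as several isozymes encoded by separate genes. Lactate dehydrogenase converts pyruvate to lactate, which leaves through monocarboxylate transporters, while the pyruvate dehydrogenase complex feeds pyruvate to the citric acid cycle and is switched off by pyruvate dehydrogenase kinases. Pluripotent cells are known for high glycolytic flux. Many genes of the pathway are known targets of hypoxia-inducible factors (HIF), which bind a short element with the core ACGTG or GCGTG.

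Glycolytic transcripts were most abundant in the iPS clones. The 37 genes together took 1.35% and 1.38% of the summed RPKM of the ES libraries, 2.96% and 1.99% in 3F+IL6, 2.69% and 2.56% in 4F, and 1.2% in both MEF libraries. Every iPS clone was thus above every ES and MEF library in this sum. Per gene, all 4 iPS libraries exceeded all 4 ES and MEF libraries for 19 of the 36 members, a pattern that 23.5% of all tested genes showed. They were Gpi1, Pfkl, Pfkm, Pfkp, Aldoa, Aldoc, Tpi1, Gapdh, Pgk1, Pgam1, Eno1, Eno2, Ldha, Slc16a1, Slc16a3, Pdk2, Pdk4, Pdha1 and Pdhb. All 4 iPS libraries lay below the others for 2 members, Pfkfb4 and Eno3 (14.9% of all tested genes).

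**Figure D1:**
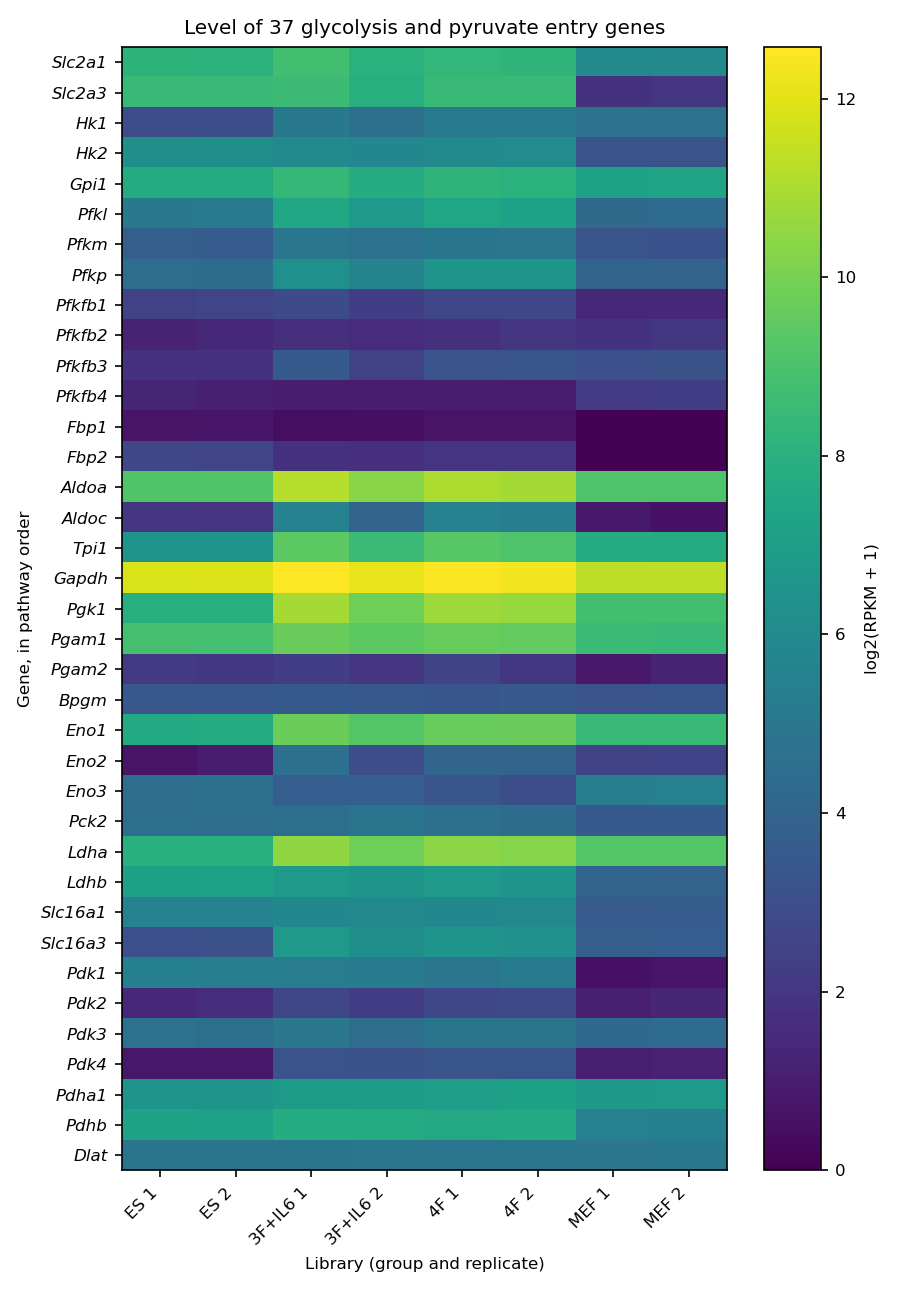
Level of each of the 37 genes (rows, pathway order) in each of the 8 libraries (columns), as log2(RPKM + 1) by colour. Aldoa, Pgk1, Eno1 and Ldha are brightest in the 4 iPS columns, and Slc2a3 and Pdk1 are dark only in the 2 MEF columns.

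Group differences were tested with limma on log2(RPKM + 1) over all 13200 genes, with Benjamini-Hochberg adjustment and a threshold of 0.05. Below, a log2 difference is on this scale and its ± is the standard error, a fold is the ratio of mean RPKM, and rose, fell, higher and lower in a test refer to this threshold. The standard error of a gene pools the spread within all groups. That of ES against MEF thus also holds the spread between the 3F+IL6 clones. Against ES cells, 20 of 36 members were higher in 3F+IL6 clones (33.1% of all genes) and 4 were lower (30.3%). In 4F clones, 21 were higher than in ES (33.7%) and 5 lower (33.5%). Both comparisons share the ES libraries. By role, 7 of 9 genes of upper glycolysis, from hexokinase to Tpi1, were higher and 1 lower in either kind of clone. Of 7 genes of lower glycolysis, from Gapdh to the enolases, 5 were higher and 1 lower, and of 4 lactate genes 3 were higher and 1 lower. The median log2 difference of the members was 0.41 for 3F+IL6 and 0.56 for 4F, beside 0.01 and 0.00 over all genes tested.

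Against MEF, 29 members were higher in 3F+IL6 (49.4% of all genes) and 2 lower (32.6%), and 31 were higher in 4F (49.2%) and 2 lower (34.4%). Their median log2 differences were 1.23 and 1.47, beside 0.26 and 0.25 over all genes. ES cells compared with MEF divided differently: 17 members were higher (49.7%) and 14 lower (32.0%), with a median of 0.30 beside 0.27 over all genes. By role, ES exceeded MEF for 5 of 9 genes of upper glycolysis and lay below for 2, and for lower glycolysis the counts were 3 and 4 of 7. The 3 comparisons share the MEF libraries.

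**Figure D2:**
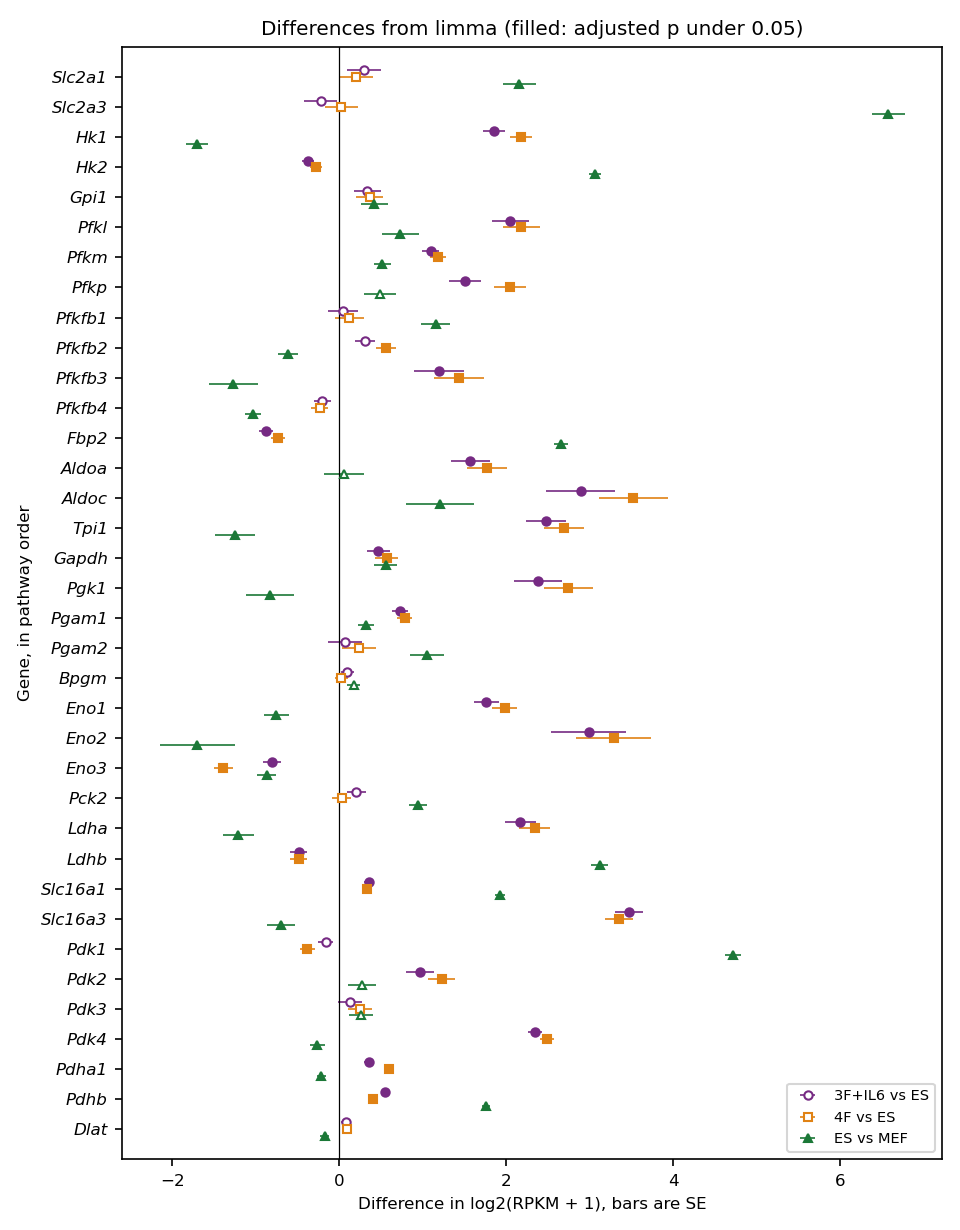
Difference in log2(RPKM + 1) for each of the 36 tested members (rows) in 3 comparisons, with bars of 1 SE and filled symbols for an adjusted p under 0.05. The iPS against ES symbols of Tpi1, Pgk1, Eno1 and Ldha lie to the right of zero while their ES against MEF symbols lie to the left.

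A few genes picked as examples are shown with the 250 bases before their RefSeq transcription start (assembly GRCm38.p6). Pgk1 and Ldha moved with the iPS clones, and Ldhb and Pdk1 were high in all pluripotent cells. The windows are written 5′ to 3′ on the strand of the gene, and none overlaps a GENCODE exon. The windows of Pgk1, Ldhb and Pdk1 end at the base before the GENCODE start of the gene. The Ldha window lies inside the GENCODE span of Ldha, which begins at position 46841475 of chromosome 7. Capitals mark ACGTG or GCGTG on either strand, the letters of the HIF core, and a palindrome CACGTG contains ACGTG on both strands.
Pgk1 (chrX:106186850-106187099, plus strand): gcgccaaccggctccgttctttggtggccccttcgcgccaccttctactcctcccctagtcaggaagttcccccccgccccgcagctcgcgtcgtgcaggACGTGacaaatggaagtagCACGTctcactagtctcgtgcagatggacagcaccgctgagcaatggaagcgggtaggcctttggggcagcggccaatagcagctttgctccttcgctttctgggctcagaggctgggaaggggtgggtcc
Ldha (chr7:46845554-46845803, plus strand): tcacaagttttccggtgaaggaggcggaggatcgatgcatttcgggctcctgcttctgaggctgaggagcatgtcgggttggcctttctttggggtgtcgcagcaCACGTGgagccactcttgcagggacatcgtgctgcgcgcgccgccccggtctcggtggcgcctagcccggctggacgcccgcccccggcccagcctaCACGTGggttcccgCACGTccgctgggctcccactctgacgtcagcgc
Ldhb (chr6:142507958-142508207, minus strand): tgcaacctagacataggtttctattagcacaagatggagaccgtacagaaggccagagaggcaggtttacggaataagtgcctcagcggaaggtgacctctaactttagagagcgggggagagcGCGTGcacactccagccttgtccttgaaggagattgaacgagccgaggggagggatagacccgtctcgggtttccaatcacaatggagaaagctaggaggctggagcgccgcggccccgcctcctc
Pdk1 (chr2:71872974-71873223, plus strand): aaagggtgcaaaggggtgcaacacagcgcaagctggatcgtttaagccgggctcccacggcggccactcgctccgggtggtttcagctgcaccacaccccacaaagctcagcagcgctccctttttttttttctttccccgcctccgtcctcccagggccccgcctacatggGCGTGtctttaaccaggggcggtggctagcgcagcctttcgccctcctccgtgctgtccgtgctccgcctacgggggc
The core letters formed 2 stretches in Pgk1, 3 in Ldha (of which 2 are CACGTG), 1 in Ldhb and 1 in Pdk1. ACGTG or GCGTG occurred in 72.2% of 54 windows of 36 members, in 55.5% of 11961 windows of genes that passed the filter and in 38.6% of all 32851 windows. A match is a string of letters and not a measured binding site, and no test was made of these shares. Ldha and Pdk1 each have 2 windows, of which 1 is shown. The Ldha window not shown has 1 GCGTG and no ACGTG, and the Pdk1 window not shown has neither. Tpi1 and Eno2, which also rose in both kinds of clone against ES, have neither in their windows.

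Glucose enters through transporters of the SLC2A family. Slc2a1 (GLUT1), the widespread transporter, was at 275 and 271 RPKM in ES, 431 and 260.1 in 3F+IL6, 323 and 304 in 4F and 61.2 and 59.5 in MEF. All 6 pluripotent libraries were above MEF, and the ES libraries lay within the 3F+IL6 range. Slc2a3 (GLUT3), a transporter of high glucose affinity known from neurons and early embryos, was at 356 and 355 in ES, 387 and 239 in 3F+IL6, 361 and 362 in 4F and only 2.53 and 2.92 in MEF. ES cells exceeded MEF 130.0-fold for Slc2a3 (log2 difference 6.58 ± 0.20, limma adjusted p = 1.44e-07) and 4.52-fold for Slc2a1 (2.16 ± 0.20, adjusted p = 3.64e-05). Neither gene passed the threshold between iPS and ES cells, with differences of 0.30 ± 0.20 and 0.20 ± 0.20 for Slc2a1 and -0.22 ± 0.20 and 0.02 ± 0.20 for Slc2a3 in 3F+IL6 and 4F.

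The transporter pair thus switched its balance between fibroblasts and pluripotent cells. Slc2a3 made up 56.6% ± 0.22 (SD, n = 2) of the summed RPKM of the pair in ES, 47.6% ± 0.39 in 3F+IL6, 53.6% ± 1.1 in 4F and 4.32% ± 0.51 in MEF. Slc2a3 led in ES and 4F, and Slc2a1 led in 3F+IL6 and MEF. To test whether an isozyme ratio differed among the 4 groups, an exact permutation test was run over the 105 ways to divide 8 libraries into 4 pairs, where the smallest p the design can reach is 0.0095, with adjustment over 15 isozyme pairs. This test asks whether the groups differ and not which ones. The Slc2a3 to Slc2a1 ratio gave p = 0.0095 in this exact test (adjusted 0.029).

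Hexokinase phosphorylates glucose and so traps it in the cell. Hk1, the widespread form, was at 6.901 and 7.095 RPKM in ES, 32.7 and 23.8 in 3F+IL6, 35.2 and 35.3 in 4F and 24.5 and 25.5 in MEF. ES cells were the low group, while 3F+IL6 clones and MEF overlapped. Hk1 was 4.03-fold higher in 3F+IL6 than in ES (log2 difference 1.85 ± 0.13, limma adjusted p = 4.05e-05) and 5.04-fold higher in 4F (2.18 ± 0.13, adjusted p = 2.28e-05). Hk2, the insulin-regulated form of muscle, fat and many tumours, was at 77.1 and 76.7 in ES, 63.3 and 55.2 in 3F+IL6, 60.8 and 65.4 in 4F and 8.34 and 8.300 in MEF. Here MEF were the low group, and both ES libraries lay above all iPS clones. Hk2 was 9.24-fold higher in ES than in MEF (3.06 ± 0.08, adjusted p = 6.95e-08) and lower in 3F+IL6 than in ES (-0.37 ± 0.08, adjusted p = 0.00423). In 4F its difference from ES was -0.28 ± 0.08 (adjusted p = 0.0132), a call that was lost without either ES library or 4F clone 1 (adjusted p = 0.0625 to 0.0779).

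Hk2 therefore held 91.7% ± 0.18 (SD, n = 2) of hexokinase RPKM in ES, 68.0% ± 2.79 in 3F+IL6, 64.1% ± 1.15 in 4F and 25.0% ± 0.6 in MEF. The iPS clones lay between ES cells and MEF in this share. Hk2 led in every pluripotent library and Hk1 led in both MEF libraries. The ratio differed among the groups (exact permutation p = 0.0095, adjusted 0.029). The family sum was 83.8 to 84.0 RPKM in ES, 79.0 to 101 in iPS clones and 32.9 to 33.8 in MEF, so the ES sum lay within the range of the iPS clones.

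Glucose phosphate isomerase, encoded by Gpi1, makes fructose 6-phosphate. Gpi1 was at 212 and 212 RPKM in ES, 326 and 220.2 in 3F+IL6, 284 and 262 in 4F and 157 and 159 in MEF. The iPS libraries were the highest, but the differences from ES of 0.34 ± 0.16 and 0.36 ± 0.16 did not pass the threshold (limma adjusted p = 0.103 and 0.0784). Phosphofructokinase, the committed and main regulated step, rose in all 3 of its genes in both kinds of clone against ES. Pfkl, the liver-type subunit, was at 32.96 and 34.1 in ES, 186 and 108 in 3F+IL6, 167 and 145 in 4F and 19.7 and 19.9 in MEF. Every iPS clone was above every ES library, and ES cells were above MEF. The log2 difference from ES was 2.05 ± 0.22 in 3F+IL6 and 2.18 ± 0.22 in 4F (adjusted p by limma, 0.000246 and 0.000172).

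Pfkp, the platelet-type subunit, was at 21.3 and 20.95 RPKM in ES, 79.1 and 48.4 in 3F+IL6, 90.02 and 90.8 in 4F and 14.8 and 14.8 in MEF, with both 4F clones above both 3F+IL6 clones. It was 3.02-fold higher in 3F+IL6 and 4.28-fold higher in 4F than in ES (limma adjusted p = 0.000545 and 0.000128). Pfkm, the muscle-type subunit, was at 12.8 and 11.7 in ES, 30.01 and 24.8 in 3F+IL6, 29.1 and 29.2 in 4F and 8.58 and 7.98 in MEF, and its groups of iPS and ES libraries did not overlap (2.23-fold and 2.38-fold, adjusted p = 0.000115 and 7.96e-05). Pfkl led the family in all 8 libraries, with 61.3% ± 2.42 (SD, n = 2) in 3F+IL6, 56.5% ± 2.59 in 4F, 50.1% ± 1.34 in ES and 46.2% ± 0.69 in MEF. The Pfkp to Pfkl ratio differed among the groups (exact permutation p = 0.019, adjusted 0.032), a call that was lost without ES replicate 1 or 4F clone 1 (adjusted 0.054 for each), and the Pfkm to Pfkl ratio missed the threshold (p = 0.048, adjusted 0.065) and passed it when either 3F+IL6 clone was left out (adjusted 0.02 and 0.024). Between ES and MEF, the Pfkl and Gpi1 calls (0.73 and 0.42) were lost when any single ES or MEF library was left out. The log2 differences then stayed at 0.706 to 0.753 and 0.41 to 0.431, and the ES and MEF libraries did not overlap for either gene.

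The PFKFB enzymes make and remove fructose 2,6-bisphosphate, the activator of phosphofructokinase. Pfkfb3, whose product has mainly kinase activity and drives glycolysis, was at 2.55 and 2.51 RPKM in ES, 10.7 and 4.58 in 3F+IL6, 8.205 and 8.88 in 4F and 7.34 and 7.71 in MEF. ES cells were the low group, and the MEF libraries lay inside the 3F+IL6 range. The difference from ES was 1.19 ± 0.30 in 3F+IL6 (limma adjusted p = 0.0104, and 0.0581 when only these 4 samples were fitted) and 1.43 ± 0.30 in 4F (adjusted p = 0.00425). Pfkfb4 was at 1.45 and 1.12 in ES, 0.964 and 0.989 in 3F+IL6, 0.969 and 0.911 in 4F and 3.54 and 3.81 in MEF. This gene was highest in MEF and was lower in all pluripotent groups, with log2 differences of -1.24, -1.27 and -1.04 in 3F+IL6, 4F and ES (adjusted p = 1.82e-05, 1.52e-05 and 4.7e-05).

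Pfkfb1, the form best known from liver, was at 4.66 and 5.17 RPKM in ES, 6.42 and 3.999 in 3F+IL6, 5.37 and 5.46 in 4F and 1.698 and 1.597 in MEF. All pluripotent libraries exceeded MEF, by 1.16 on the log2 scale in ES (limma adjusted p = 0.000551). The 5 hepatocyte markers Alb, Ttr, Apoa1, Serpina1a and Cps1 summed to at most 0.475 RPKM in any library. Pfkfb2 was between 1.41 and 3.06 RPKM in all 8 libraries, lower in ES than in MEF (-0.61 ± 0.12, limma adjusted p = 0.00227) and higher in 4F than in ES (0.56 ± 0.12, adjusted p = 0.00528). Pfkfb1 led the family in ES with 48.0% ± 2.46 (SD, n = 2) of its RPKM, and Pfkfb3 led in all other libraries, with 46.1% ± 9.17 in 3F+IL6, 48.6% ± 0.06 in 4F and 48.0% ± 0.45 in MEF. The ratios Pfkfb3 to Pfkfb2 and Pfkfb4 to Pfkfb3 did not pass the exact permutation test (p = 0.2 and 0.067, adjusted 0.2 and 0.083). Both passed it when either 3F+IL6 clone was left out. No ratio with Pfkfb1 was among the 15 tested, so the change of the leading gene from Pfkfb1 to Pfkfb3 was not tested.

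Few members that oppose or bypass the forward pathway were abundant. Fbp2, a fructose bisphosphatase, which reverses the phosphofructokinase step, was at 5.36 and 5.27 RPKM in ES, 2.51 and 2.36 in 3F+IL6 and 2.84 and 2.74 in 4F, and it was listed at 0 in both MEF libraries. It fell in iPS clones against ES, with differences of -0.88 ± 0.08 and -0.74 ± 0.08 (limma adjusted p = 0.000128 and 0.000257). Fbp1, which did not pass the filter, was at 0.367 to 0.704 RPKM in the ES and iPS libraries and listed at 0 in MEF. Pck2, the mitochondrial phosphoenolpyruvate carboxykinase, was at 20.5 to 27.8 RPKM in ES and iPS libraries and 10.9 and 10.6 in MEF. It was 2.01-fold higher in ES than in MEF (adjusted p = 0.000138). Bpgm, which makes 2,3-bisphosphoglycerate, was between 8.41 and 10.7 RPKM in all libraries. Its calls above MEF in 3F+IL6 and 4F (0.27 and 0.20, limma adjusted p = 0.0127 and 0.0439) were lost without either MEF library (adjusted p = 0.0558 to 0.175), and that in 4F also without either ES library or 4F clone 2 (adjusted p = 0.0823 to 0.182).

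Aldolase cleaves fructose 1,6-bisphosphate. Aldoa, the main isozyme, was at 579.8 and 577 RPKM in ES, 2317 and 1279 in 3F+IL6, 2114 and 1856 in 4F and 557 and 553 in MEF. The iPS libraries stood above all others, and ES cells and MEF differed by 0.06 ± 0.24, which did not pass (limma adjusted p = 0.823). The difference from ES was 1.57 ± 0.24 in 3F+IL6 and 1.77 ± 0.24 in 4F (adjusted p = 0.00116 and 0.000598). Aldoc, the isozyme known from brain, was at 2.92 and 2.71 in ES, 46.5 and 15.9 in 3F+IL6, 46.02 and 39.9 in 4F and 0.7597 and 0.549 in MEF. It was 11.1-fold higher in 3F+IL6 and 15.3-fold higher in 4F than in ES (log2 differences 2.89 ± 0.41 and 3.53 ± 0.41, adjusted p = 0.000884 and 0.000324). Its call between ES and MEF (1.21) was lost when any single ES or MEF library was left out. The log2 difference was then 1.115 to 1.299, and the ES and MEF libraries did not overlap. Aldoc still made up at most 2.13% of aldolase RPKM in any library, and its ratio to Aldoa differed among the groups (exact permutation p = 0.0095, adjusted 0.029).

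Triosephosphate isomerase and phosphoglycerate kinase showed the widest gap between ES and iPS cells among the steps for which 1 gene was listed. Tpi1 was at 90.2 and 90.6 RPKM in ES, 682 and 378 in 3F+IL6, 632 and 552 in 4F and 219 and 215 in MEF. ES cells were lowest, MEF next, and the iPS clones highest, with no overlap between these 3. Tpi1 was 5.86-fold higher in 3F+IL6 and 6.55-fold higher in 4F than in ES (2.48 ± 0.24 and 2.70 ± 0.24, limma adjusted p = 0.000147 and 9.8e-05), and ES cells were below MEF (-1.25 ± 0.24, adjusted p = 0.00184). Pgk1, an ATP-producing enzyme whose promoter is printed above, was at 247 and 246 in ES, 1869.5 and 889.9 in 3F+IL6, 1702 and 1614 in 4F and 441 and 438 in MEF. The order was the same as for Tpi1, and 3F+IL6 clone 2 lay well below the other iPS clones. Pgk1 was 5.6-fold higher in 3F+IL6 and 6.73-fold higher in 4F than in ES (2.39 ± 0.29 and 2.75 ± 0.29, adjusted p = 0.000425 and 0.000206). The lower level in ES than in MEF (-0.83 ± 0.29, limma adjusted p = 0.0303) lost its call when any single ES, MEF or 4F library was left out. In those fits the log2 difference stayed at -0.829 to -0.839, and the ES and MEF libraries did not overlap. Replicates differed on the log2 scale by 0.005 in ES and 0.01 in MEF but by 1.07 in 3F+IL6, a spread that the pooled standard error includes.

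Gapdh, which oxidises glyceraldehyde 3-phosphate and is often used as a reference gene, was the most abundant member, at 3683 and 3794 RPKM in ES, 6108 and 4365 in 3F+IL6, 5746 and 5328 in 4F and 2538 and 2544 in MEF. It was not level across the groups. The difference from MEF was 1.02 ± 0.14 in 3F+IL6, 1.12 ± 0.14 in 4F and 0.56 ± 0.14 in ES (limma adjusted p = 0.000296, 0.00017 and 0.00706). The smaller differences from ES of 0.47 ± 0.14 and 0.57 ± 0.14 (adjusted p = 0.0214 and 0.00892) were lost without either ES library for 3F+IL6 and without 4F clone 1 for 4F (adjusted p = 0.0593 to 0.0908). Pgam1, the main phosphoglycerate mutase, was at 459 and 458 in ES, 843 and 685 in 3F+IL6, 818 and 762.2 in 4F and 375 and 359.5 in MEF. Its rise over ES was 1.67-fold and 1.72-fold (adjusted p = 0.000537 and 0.000351). Pgam2, the muscle isozyme, was at 0.829 to 4.998 RPKM and made up at most 0.733% of the mutase pair, with no ratio difference past the exact permutation test (p = 0.11, adjusted 0.12).

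**Figure D3:**
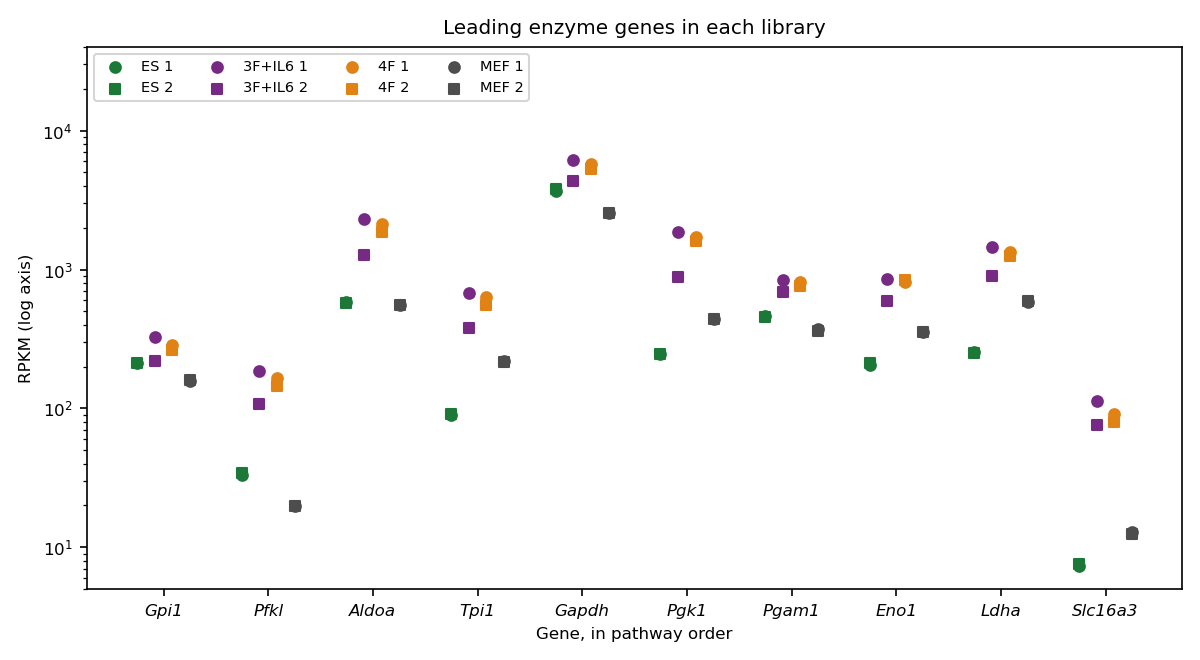
RPKM (log axis) of 10 enzyme and transporter genes in pathway order in each of the 8 libraries, with colours for groups and symbols for replicates. For Tpi1, Pgk1, Eno1 and Ldha the ES libraries are lowest and the 4 iPS libraries highest, and 3F+IL6 clone 2 lies below clone 1 for every gene shown.

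Enolase has 3 genes, and they moved in different directions. Eno1, the widespread form, was at 207 and 211 RPKM in ES, 858 and 591 in 3F+IL6, 812 and 845 in 4F and 356 and 353 in MEF, and it was higher in 3F+IL6 and 4F than in ES (1.76 ± 0.15 and 1.98 ± 0.15, limma adjusted p = 8.75e-05 and 5.27e-05). Eno2, the neuronal form, was at 0.598 and 0.932 in ES, 23.5 and 6.94 in 3F+IL6, 16.2 and 16.1 in 4F and 4.59 and 4.87 in MEF. ES cells were the low group and all iPS clones were above MEF. The difference of Eno2 from ES was 2.99 ± 0.45 and 3.29 ± 0.45, or 19.9-fold and 21.1-fold (limma adjusted p = 0.00111 and 0.000647). Against MEF it was 1.29 ± 0.45 and 1.59 ± 0.45 (adjusted p = 0.0307 and 0.0126), calls that were lost without either MEF library or either 4F clone for 3F+IL6 and without MEF replicate 1 or either 4F clone for 4F (adjusted p = 0.0564 to 0.106). The neuron markers with a row, 7 of them, summed to 182 to 187 RPKM in ES, 99.5 to 113 in iPS clones and 34.6 to 35.6 in MEF, mostly from Stmn2 and Tubb3, while Rbfox3 and Snap25 were under 0.3 RPKM everywhere. Single markers differed in direction between iPS and ES cells. Stmn2 fell (-1.14 ± 0.06 and -1.09 ± 0.06, limma adjusted p = 1.4e-05 and 1.63e-05), whereas Nefl, a neurofilament gene, rose as Eno2 did (0.81 ± 0.20 and 0.59 ± 0.20, adjusted p = 0.0105 and 0.0351). Nefl was at 5.13 and 4.52 RPKM in ES, 7.100 and 11.9 in 3F+IL6, 7.51 and 8.01 in 4F and 0.196 and 0.137 in MEF. The part of such cells in the Eno2 values was not tested.

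Eno3, the muscle form, was at 21.2 and 24.4 RPKM in ES, 12.7 and 12.4 in 3F+IL6, 9.02 and 7.17 in 4F and 41.2 and 43.6 in MEF. Its order differed from that of Eno1: MEF were highest, ES cells next and iPS clones lowest, with no overlap. Eno3 fell in 3F+IL6 and 4F against ES (-0.81 ± 0.11 and -1.39 ± 0.11, limma adjusted p = 0.000772 and 6.81e-05) and against MEF (-1.68 ± 0.11 and -2.26 ± 0.11, adjusted p = 6.62e-06 and 1.4e-06). It made up 9.79% ± 0.72 (SD, n = 2) of enolase RPKM in ES, 10.6% ± 0.44 in MEF, 1.73% ± 0.43 in 3F+IL6 and 0.95% ± 0.18 in 4F. The Eno3 to Eno1 ratio differed among the groups (exact permutation p = 0.019, adjusted 0.032), a call that was lost without ES replicate 1 or 4F clone 2. Eno2 to Eno1 did not pass this test (exact permutation p = 0.1, adjusted 0.12) but did when either 3F+IL6 clone was left out. Of 10 muscle markers, 4 passed the filter, and their list summed to 44.1 to 44.7 RPKM in MEF, 28.2 to 28.3 in ES and 10.2 to 15.1 in iPS clones. The 4 tested markers had different patterns. Acta1, skeletal actin, had the group order of Eno3 (25.8 and 25.99 in MEF, 12.4 and 12.3 in ES and 1.15 to 1.99 in iPS clones). Des, desmin, was at 12.5 and 12.6 in MEF, 12.9 and 12.9 in ES, 12.6 and 11.2 in 4F and 6.46 and 7.28 in 3F+IL6. Actc1, cardiac actin, was highest in ES, at 1.66 and 1.94, with 0.649 and 0.611 in 3F+IL6, 0.123 and 0.0577 in 4F and 0.367 and 0.478 in MEF. Tnnt2, cardiac troponin T, was at 5.04 and 5.25 in MEF and at most 0.3497 in the other libraries. Myod1, Myog and Ckm were under 0.3 RPKM in every library. The part of such cells in the Eno3 values was not tested.

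Lactate dehydrogenase separated ES cells from the other groups. Ldha, whose subunit favours lactate formation, was at 256 and 252 RPKM in ES, 1449 and 905 in 3F+IL6, 1345 and 1242 in 4F and 588 and 591 in MEF. ES cells were lowest and all iPS clones were above MEF. Ldha was 4.63-fold higher in 3F+IL6 and 5.09-fold higher in 4F than in ES (2.17 ± 0.19 and 2.34 ± 0.19, limma adjusted p = 9.52e-05 and 6.74e-05), and lower in ES than in MEF (-1.21 ± 0.19, adjusted p = 0.000631). Ldhb, the heart-type subunit, was at 139 and 144 in ES, 112 and 90.8 in 3F+IL6, 107 and 94.8 in 4F and 15.7 and 15.03 in MEF. Here ES cells were highest and MEF lowest. Ldhb was 9.22-fold higher in ES than in MEF (3.12 ± 0.10, adjusted p = 2.2e-07) and fell in iPS clones against ES (-0.49 ± 0.10 and -0.49 ± 0.10, adjusted p = 0.00521 and 0.0046).

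Ldhb accordingly held 35.8% ± 0.93 (SD, n = 2) of the pair in ES, 8.14% ± 1.39 in 3F+IL6, 7.22% ± 0.18 in 4F and 2.54% ± 0.08 in MEF. Ldha led in all libraries. The ratio differed among the groups (exact permutation p = 0.019, adjusted 0.032), a call that was lost without 4F clone 2 (adjusted 0.061). Ldhc, the testis-type gene and no member, reached at most 4.57 RPKM.

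Lactate and pyruvate cross the plasma membrane through monocarboxylate transporters. Slc16a1 (MCT1) was at 46.2 and 46.2 RPKM in ES, 58.3 and 59.99 in 3F+IL6, 57.7 and 58.8 in 4F and 11.1 and 11.8 in MEF. The pluripotent libraries were all above MEF, by 1.93 on the log2 scale in ES (limma adjusted p = 1.17e-07), and iPS clones were modestly above ES (0.35 ± 0.05 and 0.33 ± 0.05, adjusted p = 0.00125 and 0.00148). Slc16a3 (MCT4), the exporter typical of highly glycolytic cells, was at 7.304 and 7.57 in ES, 113 and 76.3 in 3F+IL6, 90.7 and 80.2 in 4F and 12.9 and 12.5 in MEF. It showed the largest log2 difference from ES of all members in 3F+IL6, 3.47 ± 0.16, which is 12.7-fold (adjusted p = 8.96e-06), beside 3.35 ± 0.16 or 11.5-fold in 4F (adjusted p = 1.05e-05). By the fold of mean RPKM, Eno2 rose more, 19.9-fold in 3F+IL6 and 21.1-fold in 4F. Its ES mean was 0.77 RPKM, where the added 1 of the log2 scale shrinks the difference. Slc16a1 led the pair in ES, where Slc16a3 made up 13.9% ± 0.31 (SD, n = 2), and Slc16a3 led elsewhere with 60.9% ± 7.0 in 3F+IL6, 59.4% ± 2.4 in 4F and 52.7% ± 1.55 in MEF. The exact permutation test of this ratio missed the threshold (p = 0.048, adjusted 0.065) and passed it when either 3F+IL6 clone was left out.

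**Figure D4:**
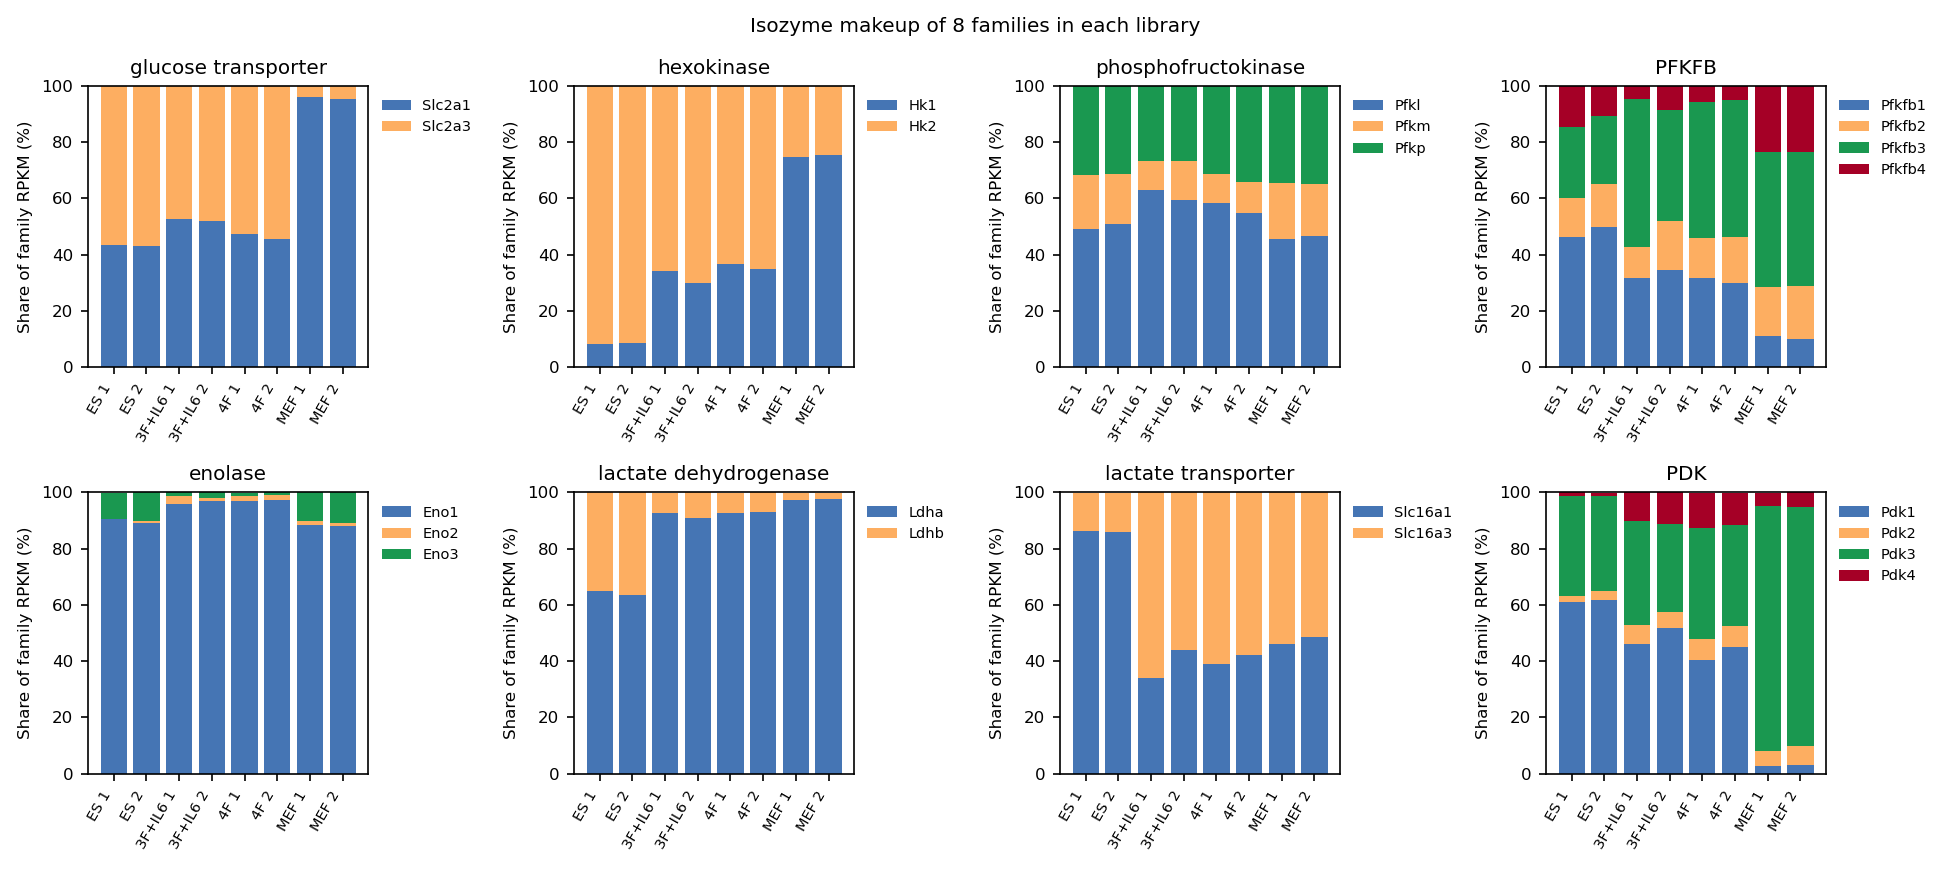
Share of the summed RPKM of a family (percent, stacked bars) taken by each isozyme in each of the 8 libraries, for 8 families. Slc2a3, Hk2 and Pdk1 shrink to 4.32%, 25.0% and 2.72% in MEF, and the Ldhb share of 35.8% and the Slc16a1 share of 86.1% set the ES libraries apart.

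Pyruvate dehydrogenase kinases phosphorylate and inactivate the pyruvate dehydrogenase complex. Pdk1, shown above with 1 marked stretch in its promoter window, was at 42.3 and 40.8 RPKM in ES, 37.96 and 35.99 in 3F+IL6, 29.2 and 34.3 in 4F and 0.547 and 0.6905 in MEF. MEF were under 1 RPKM, far below every pluripotent library, and the log2 difference of ES from MEF was 4.72 ± 0.09, or 67.2-fold (limma adjusted p = 3.31e-08). Its lower level in 4F than in ES (-0.38 ± 0.09, adjusted p = 0.00889) lost its call without ES replicate 1 (adjusted p = 0.0601). Pdk4, known from fasting and fatty acid use, was at 0.765 and 0.766 in ES, 8.18 and 7.77 in 3F+IL6, 9.05 and 8.74 in 4F and 1.05 and 1.19 in MEF. The iPS clones stood alone: Pdk4 was 10.4-fold and 11.6-fold higher than in ES (2.35 ± 0.09 and 2.49 ± 0.09, adjusted p = 3.84e-06 and 3.48e-06). Pdk2 was at 1.65 and 2.08 in ES, 5.44 and 3.85 in 3F+IL6, 5.54 and 5.84 in 4F and 1.16 and 1.59 in MEF, and rose in 3F+IL6 and 4F against ES (0.97 ± 0.16 and 1.23 ± 0.16, adjusted p = 0.00193 and 0.000592).

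Pdk3 varied over a narrower range, at 24.7 and 22.5 RPKM in ES, 30.5 and 21.8 in 3F+IL6, 28.8 and 27.4 in 4F and 18.9 and 20.2 in MEF. Its calls above MEF in 3F+IL6 and 4F (0.38 and 0.50, limma adjusted p = 0.04 and 0.0134) did not hold throughout: the first was lost without any single library except 3F+IL6 clone 2 (adjusted p = 0.0581 to 0.157) and the second without 4F clone 1 or MEF replicate 1 (adjusted p = 0.0698 and 0.0717). Pdk3 led in MEF with 86.3% ± 1.37 (SD, n = 2) of kinase RPKM, while Pdk1 led in ES (61.3% ± 0.56), 3F+IL6 (49.0% ± 3.97) and 4F (42.6% ± 3.36). Pdk4 made up 1.13% ± 0.04 in ES, 10.6% ± 0.87 in 3F+IL6, 11.97% ± 0.71 in 4F and 4.93% ± 0.12 in MEF. The ratios of Pdk2 and of Pdk4 to Pdk1 differed among the groups (exact permutation p = 0.0095, adjusted 0.029 for each), as did Pdk3 to Pdk1 (p = 0.019, adjusted 0.032). The Pdk3 to Pdk1 call was lost without either ES library or either 4F clone (exact permutation, adjusted 0.065 to 0.079). In all, 9 of the 15 isozyme ratios passed, some of which lost their call with a single library left out, as given above. The test was not run on other gene pairs, so no share over all pairs stands beside this count. The leading gene differed between libraries in 5 of 11 families with several isozymes: glucose transporters, hexokinases, PFKFB enzymes, lactate transporters and these kinases.

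The subunits of the pyruvate dehydrogenase complex differed in how far they varied. Pdha1, the E1 alpha subunit that the kinases phosphorylate, was at 89.6 and 91.6 RPKM in ES, 114 and 118 in 3F+IL6, 132 and 143 in 4F and 105 and 106 in MEF. Pdhb, the E1 beta subunit, was at 149 and 147 in ES, 218 and 216 in 3F+IL6, 189 and 204 in 4F and 43.2 and 42.6 in MEF. Both subunits were highest in iPS clones, and Pdhb was lowest in MEF, with ES 3.45-fold above MEF (1.76 ± 0.05, limma adjusted p = 1.21e-07). Against ES, Pdha1 rose by 0.35 in 3F+IL6 and 0.59 in 4F, and Pdhb by 0.55 and 0.41 (adjusted p at most 0.00125). Dlat, the E2 subunit, stayed between 27.5 and 31.9 RPKM in all 8 libraries, and its call between ES and MEF (-0.18, adjusted p = 0.0162) was lost without either ES library or MEF replicate 2 (adjusted p = 0.0741 to 0.106).

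The 3F+IL6 and 4F clones were then compared with each other, since the series includes the 4F clones as a reference for the 3F+IL6 clones. No member was called in either direction by limma, beside 0.773% of all genes called higher and 0.568% called lower (1.34% in either direction). At an unadjusted p under 0.05 there were 5 members and 3198 genes in all. The 5 members were Eno3 (0.58 ± 0.11, adjusted p = 0.058), Pdha1 (-0.24 ± 0.05, adjusted p = 0.0756), Pdhb (0.14 ± 0.05, adjusted p = 0.153), Pfkp (-0.54 ± 0.19, adjusted p = 0.158) and Hk1 (-0.33 ± 0.13, adjusted p = 0.191). The absence of calls does not show that the clones were alike. The 3F+IL6 clones differed from each other on the log2 scale by 0.698 for Pfkp and 0.443 for Hk1, beside -0.012 and -0.004 between the 4F clones. For Eno3, Pdha1 and Pdhb the 3F+IL6 clones differed by 0.035, -0.06 and 0.017, less than the 4F clones (0.295, -0.118 and -0.111). Some members were called when either 3F+IL6 clone was left out, but such a fit no longer holds the spread of that pair.

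Glycolytic genes differed between the 3F+IL6 clones themselves. Clone 1 was above clone 2 for 31 of the 36 members, beside 39.1% of all tested genes, and by more than 0.5 on the log2 scale for 15 members, beside 3.52% of all genes. The corresponding number over 0.5 was 0 between the ES libraries (0.523% of all genes), 1 between the 4F clones (0.955%) and 0 between the MEF libraries (0.462%). The RPKM of clone 1 was 3.38 times that of clone 2 for Eno2, 2.93 times for Aldoc, 2.33 times for Pfkfb3, 2.10 times for Pgk1, 1.81 times for Aldoa and Tpi1, 1.72 times for Pfkl, 1.66 times for Slc2a1 and 1.60 times for Ldha. For the pyruvate dehydrogenase subunits the ratio was 0.959 for Pdha1, 1.01 for Pdhb and 0.969 for Dlat. For the kinases of the complex it was 1.41 for Pdk2 and 1.40 for Pdk3, beside 1.40 for Gapdh, and 1.05 for Pdk1 and Pdk4. Pck2 was at 0.811. With 1 library per clone there is no test of this difference. Clone 1 exceeded both 4F clones for 23 members (37.4% of all genes) and clone 2 lay below both for 28 (33.6% of all genes), of which 21 were not below both in clone 1 as well (13.6%). Clone 2 also had the higher fibroblast marker sum, 368 against 260 RPKM, and its part in the difference was not tested.

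**Figure D5:**
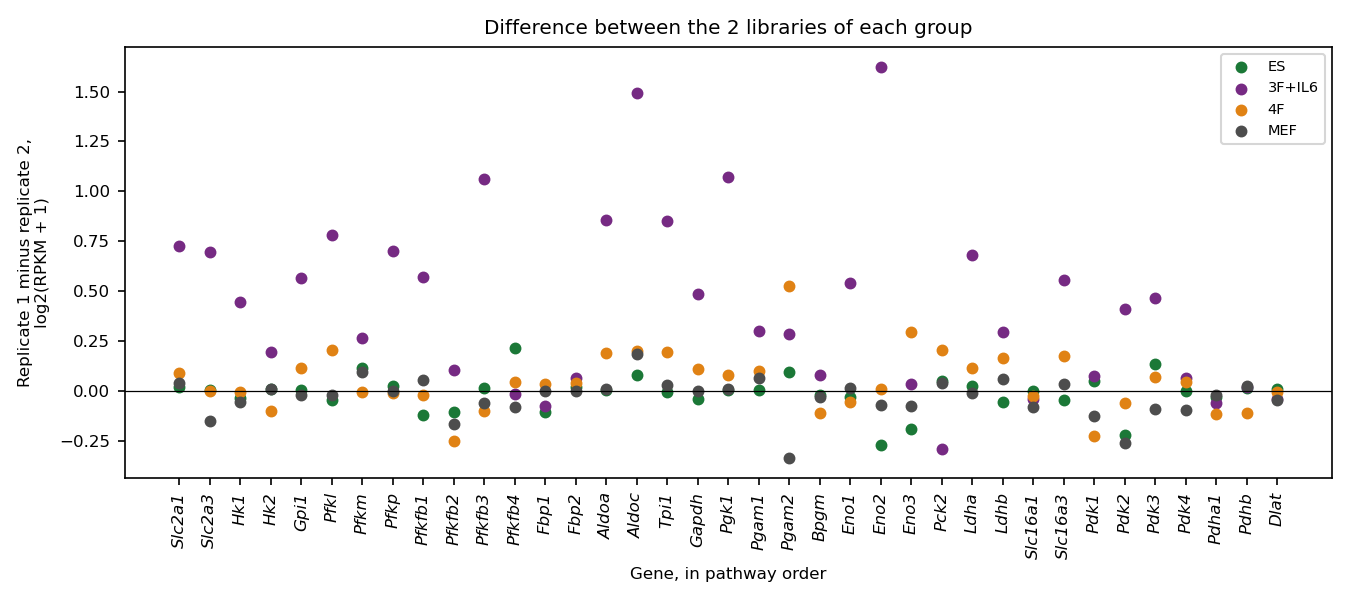
Difference in log2(RPKM + 1) between replicate 1 and replicate 2 of each group for each of the 37 genes in pathway order. The 3F+IL6 points rise above 0.5 for 15 genes between Slc2a1 and Slc16a3, while those of Pdha1, Pdhb and Dlat lie near zero with the other groups.

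Genes of the same and neighbouring pathways outside the 37 were counted in 4 lists. Of 8 tested enzymes of glycolysis and gluconeogenesis, 6 were higher in 3F+IL6 than in ES (33.1% of all genes) and 7 in 4F (33.7%). None was lower in limma (30.3% and 33.5% of all genes). The 3F+IL6 and 4F clones exceeded MEF for 6 and 7 (49.4% and 49.2%). ES exceeded MEF for 3 (49.7%) and lay below it for 1 (32.0%). Pkm, pyruvate kinase, which completes the chain to pyruvate, was at 761.8 and 766 RPKM in ES, 2287 and 1697 in 3F+IL6, 2222 and 2010.0 in 4F and 1110.0 and 1107 in MEF, the same order of groups as Ldha and Eno1. Its difference from ES was 1.37 ± 0.13 in 3F+IL6 and 1.47 ± 0.13 in 4F (adjusted p by limma, 0.000125 and 8.95e-05). Pgm2, which links glucose 1-phosphate and glucose 6-phosphate, rose by 2.24 and 2.39, and Ldhd, the D-lactate dehydrogenase, by 1.84 and 1.52 (adjusted p at most 0.00107).

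Each of the other lists held genes called higher and genes called lower between iPS and ES cells. Over all genes, 33.1% were higher and 30.3% lower in 3F+IL6 than in ES, and 33.7% and 33.5% in 4F. Of 8 genes of the pyruvate carrier and dehydrogenase partners, 2 were higher and 3 lower in 3F+IL6 than in ES and 2 higher and 2 lower in 4F. Pdp1, the phosphatase that reactivates the complex, rose (0.90 and 1.00), whereas Pdhx, the E3-binding subunit of the complex, fell (-0.60 and -0.76). Mpc1, a subunit of the mitochondrial pyruvate carrier, also fell (-0.87 and -0.65). Of 7 pentose phosphate genes, 4 were higher and 1 lower in either kind of clone, led by G6pdx (1.64 and 1.61), the entry enzyme of that branch. Of 16 citric acid cycle genes, 7 were higher and 4 lower in 3F+IL6 and 6 higher and 4 lower in 4F, and the largest difference in 3F+IL6 was 0.45 for Fh1, fumarase. ES cells exceeded MEF for 12 of the 16 (49.7% of all genes) and lay below for 1 (32.0%). No gene of the 4 lists was called between 3F+IL6 and 4F, beside 1.34% of all genes.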

How the data were processed

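Gene expression was measured by RNA-seq in 8 libraries, 2 in each of 4 groups. Each TruSeq library was made from the poly-A fraction of 500 ng of total RNA and read at 50 bp, per the labels' protocols. The submitters' processing notes name the genome build mm10. Which aligner, counter and gene models were used is not given in the sources used here. The deposited tables hold 1 value per gene symbol, read here as RPKM since no header names the unit and low values multiplied by transcript length step by a constant amount, which also gave the estimated depth. Of those values 44.6% to 47.4% were whole within 0.1 read, too few to recover counts or use a count test.

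The members and lists were chosen with earlier results of these data known. Values were taken as log2(RPKM + 1), which understates the change of low genes. Genes with RPKM of at least 1 in at least 2 libraries were kept. A single limma model (version 3.58.1, R 4.3.3) held the 8 samples, with trended variance, no replicate block and adjustment over all 13200 genes in each of 6 comparisons (median SE 0.102, 6.94 degrees of freedom). The fit was tested on simulated data. Isozyme ratios used the same pseudocount of 1 and an exact permutation test, one-sided by construction. Any member could be named, and of the other lists at most the 3 largest called differences per comparison; the 4 muscle markers that passed the filter were named after their values were seen. Alternatives were a pseudocount of 0.1, no filter, a mean of at least 5 RPKM, quantile normalization, a replicate block, a fit of the 4 samples compared, and leaving out each library. Reads shared with processed pseudogenes, as of Gapdh or Pgk1, were not resolved. Promoter windows are from RefSeq (GRCm38.p6); 36 of the 37 members matched.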

Additional observations from a re-analysis of the deposited data

How the results depend on the processing

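Of 150 named differences, 0 changed sign under the alternatives run, 20 lost their call under at least 1 and 4 gained one. Every count of members called stayed within 1.5 times its value except as follows. Members called lower in 3F+IL6 than in MEF, 2 in the report, were 1 with a mean of at least 5 RPKM (31.2% of all genes). They were 4 with quantile normalization (37.7%), and their number also moved when 3F+IL6 clone 1 was left out. Members lower in 4F than in MEF, also 2, were 1 with a mean of at least 5 RPKM, a filter that 29 members passed. Members lower in 4F than in ES, 5 in the report (33.5% of all genes), also changed in number when ES replicate 1 was left out. Between 3F+IL6 and 4F, where no member was called in the report, some were called when either 3F+IL6 clone was left out. With a 3F+IL6 clone left out, the fit no longer holds the spread of that pair, and the lone sample is assumed to vary like the other groups. The number of isozyme ratios past the threshold, 9 in the report, was 6 to 14, with 14 without either 3F+IL6 clone. Quantile normalization moved the median of all genes by at most 0.174 on the log2 scale, lowering it against MEF from 0.263 to 0.089 for 3F+IL6.

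Replicate numbers were also fitted as a block. The deviations of replicate 1 correlated between groups at -0.055 to 0.214, the highest being between ES and MEF. Whether libraries with the same number shared any handling was not tested. With the block, 30 members were higher and 3 lower in 3F+IL6 than in MEF, 30 and 2 in 4F than in MEF, and 18 and 14 in ES than in MEF; the counts against ES (20 and 4, 21 and 5) and between the kinds of clone (0 and 0) equalled those without it. Depth limits the low members, such as Fbp1, Pfkfb2 and Pfkfb4, more than the abundant enzymes.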
